A study of Mus musculus with 6 samples.

Results

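The initiator and elongator methionine tRNAs of mouse brain were compared in small RNA libraries of wild-type mice and of mice lacking TRMT1L. All cytosolic references named iMet-CAT (initiator) or Met-CAT (elongator) were taken by name, without use of any measured value, which gave 3 initiator and 5 elongator references, 8 of the 190 tRNA references covered in the series. RNA of whole brain, freed of ribosomal RNA and limited to sizes of 30 to 150 bp, was sequenced in 3 wild-type (WT) and 3 TRMT1L knockout (KO) libraries. TRMT1L is a paralogue of TRMT1, the enzyme that methylates guanosine 26 of tRNAs, and the comparison asks how tRNA reads differ without it. The labels give no strain, age or sex, do not describe the knockout allele, and do not say whether the libraries came from separate mice, so p-values measure the spread between libraries only. Neither the TRMT1L transcript nor markers of brain were analysed here, so the labels were not checked against them.

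The initiator tRNA carries the first methionine into the ribosomal P site at the start codon, whereas the elongator tRNA delivers methionine at internal codons through the A site. Both read AUG with the same CAU anticodon, and both are encoded by several gene copies. Several of their modifications touch the base-pairing face: 1-methylguanosine at position 9 of the initiator is made by TRMT10A, and 1-methyladenosine at position 58 of the T loop by the TRMT6/TRMT61A complex. Such bases can leave mismatches, deletions or early ends when reverse transcriptase copies the RNA, while threonylcarbamoyl adenosine at position 37, beside the anticodon, is usually copied as adenosine.

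The sequences of the best-covered initiator reference and of 1 elongator reference follow, read from the reference bases in the deposited tables and written as DNA 5′ to 3′, because the results below turn on single positions in them. Capitals mark the anticodon and position 58 in both, and position 9 in the initiator. The tables carry no genome coordinates, so positions are counted from 1 at the 5′ end of each reference.
iMet-CAT-1: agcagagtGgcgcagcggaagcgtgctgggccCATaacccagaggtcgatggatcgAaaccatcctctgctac
Met-CAT-2: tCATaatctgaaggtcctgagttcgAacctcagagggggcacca
The initiator sequence runs from position 1 to 73 and the elongator sequence from position 33 to 76, since positions with fewer than 30 reads are not listed. The elongator references follow the canonical tRNA numbering. The initiator lacks canonical position 17, so its canonical positions 26, 37 and 58 are positions 25, 36 and 57 of the reference, and canonical numbers are used below unless a reference position is named. Met-CAT-3 differs from Met-CAT-2 by G68A alone over 44 positions, and the 3 initiator references have the same base at every position that any 2 of them list.

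The WT libraries held 6151209, 6295061 and 6274159 base calls over all tRNA references and the KO libraries 8295437, 7981301 and 8797395, so each KO library was deeper. Methionine tRNAs made up 1.15%, 1.13% and 1.04% of these calls in WT and 1.10%, 0.687% and 0.820% in KO. Their highest coverage at any position was 1116 reads, far below the 8032 at which the deepest references stop. iMet-CAT-1, iMet-CAT-2, iMet-CAT-3, Met-CAT-1 and Met-CAT-2 were listed in all 6 libraries. Met-CAT-3 was listed in the 3 WT libraries and in KO replicate 1, with highest coverages of 69, 94, 43 and 60 reads. Met-CAT-4 (44 reads) and Met-CAT-5 (39 reads) were listed in WT replicate 2 only, from position 37 to 50 and from position 39 to 48.

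Reads of several copies overlap. At 22 of the 23 positions where read starts could be compared, iMet-CAT-2 had exactly the read-start counts of iMet-CAT-1 in all 6 libraries, although at none of 31 positions was its coverage the same in all 6. The read starts of iMet-CAT-2 are therefore not independent of those of iMet-CAT-1. No position of Met-CAT-1 had the same coverage as Met-CAT-2 in all 6 libraries, over 42 positions compared. iMet-CAT-3 was unlisted in WT replicates 1 and 2 at reference positions 54 and 55 of the T loop, and in each of the other 4 libraries its read-start counts there were those of iMet-CAT-1.

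The best-covered initiator reference and the elongators were covered over different parts of the molecule. iMet-CAT-1 was read from its first base: position 1 was covered by 166, 152 and 125 reads in WT and 362, 237 and 247 in KO, all of which began there. Coverage rose to its maximum beside the anticodon, at canonical 37 to 39, with 395, 429 and 352 reads in WT and 679, 529 and 516 in KO. It then fell within the T loop. At canonical 53, coverage was still 368, 372 and 299 reads in WT and 580, 446 and 453 in KO. At canonical 58 it was 81, 84 and 79 in WT and 123, 96 and 111 in KO, which is 21.2% to 26.4% of the coverage at 53. Coverage of iMet-CAT-1 thus fell by most of its height between the start of the T loop and position 58, in both genotypes. The other initiator copies had other profiles. iMet-CAT-2 was first listed at reference position 27 in WT replicate 2 and KO replicate 2 and at 29 to 31 in the other libraries, and it kept 42.8% to 71% of its coverage at 53 at position 58. iMet-CAT-3, where listed in the T loop (WT replicate 3 and the KO libraries), had 35, 55, 41 and 61 reads at canonical 55, of which 30, 41, 33 and 38 began there, and 37, 55, 42 and 63 at 58.

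The elongators lacked the 5′ part that iMet-CAT-1 had. No position before 33 was listed for Met-CAT-1, Met-CAT-2 or Met-CAT-3 in any library, so the acceptor 5′ strand, the D arm and the start of the anticodon arm each had fewer than 30 reads. None of the 93 other cytosolic references that were listed in all 6 libraries and whose anticodon was located lacked its 5′ part in this way, with no position listed further than 2 bases before the anticodon. Met-CAT-1 rose from 193, 181 and 237 reads at position 38 to 805, 657 and 761 at position 39 in WT, and from 268, 181 and 182 to 983, 405 and 668 in KO. From there its coverage stayed near its maximum to the 3′ end: the terminal A of the CCA end, position 76, kept 78.0% to 92.9% of the highest coverage. At position 58 the elongator lost almost no reads, with 96.9% to 100.4% of its coverage at 53. The share of iMet-CAT-1 minus that of Met-CAT-1 was -75.5 percentage points on average and lay between -78.4 and -71.6 points in the 6 libraries, each in the same direction (exact two-sided sign-flip test over 6 libraries, p = 0.031, the smallest it can give). Met-CAT-2 had the profile of Met-CAT-1, with 94.7% to 101.6% of its coverage at 53 kept at 58 and 73.4% to 88.0% of its highest coverage kept at 76.

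**Figure D1:**
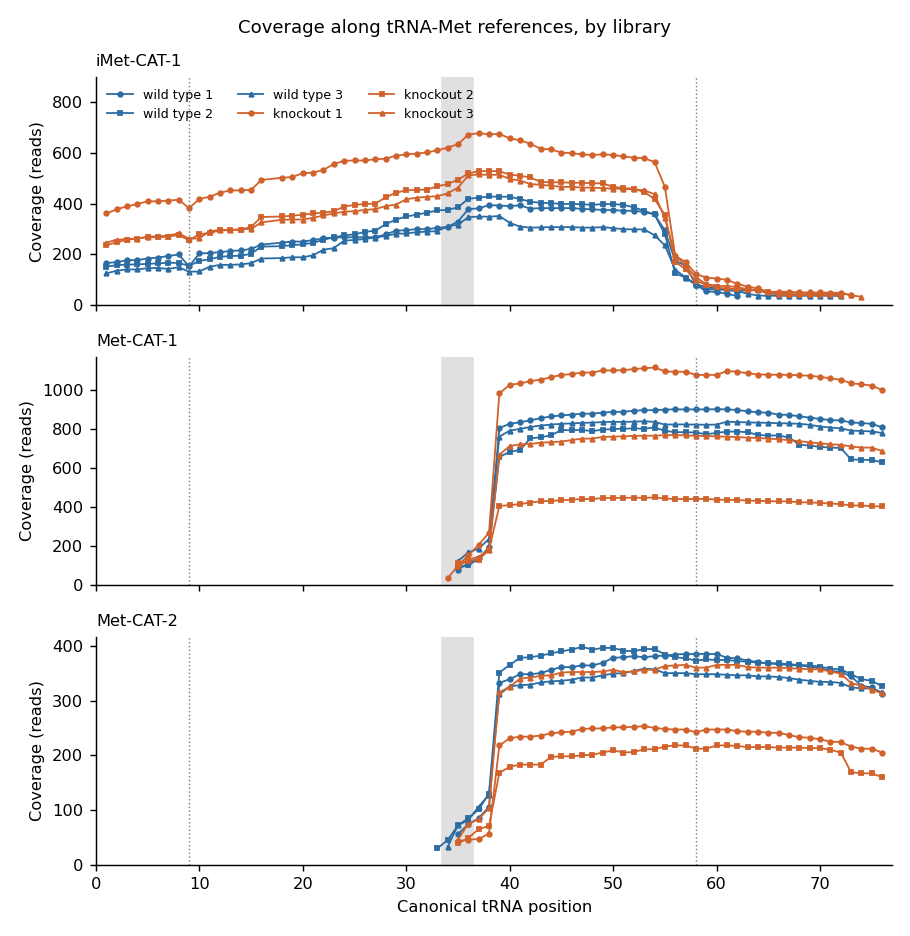
Coverage in reads (y axes, linear) against canonical tRNA position (x axis) for iMet-CAT-1, Met-CAT-1 and Met-CAT-2, one line per library, blue for wild type and orange for knockout; grey marks the anticodon and dotted lines mark positions 9 and 58. iMet-CAT-1 is covered from position 1 and falls within the T loop, while the elongators rise at position 39 and stay high to position 76.

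The ratio of mean coverage before the anticodon to mean coverage after it puts numbers on this, with unlisted positions counted as 29 reads. For iMet-CAT-1 the log2 ratio was 0.14, 0.06 and 0.13 in WT and 0.51, 0.33 and 0.29 in KO. For Met-CAT-1 only an upper bound exists: with every 5′ position at 29 reads the log2 ratio was at most -4.85, -4.64 and -4.77 in WT and -5.15, -3.84 and -4.62 in KO. iMet-CAT-1 therefore lay above the elongator bound in all 6 libraries. The bound for Met-CAT-2 lay between -3.64 and -2.75. Among 80 other references with both sides listed, the mean log2 ratio ranged from -4.09 to 6.94 with a median of 0.49, and 1 lay below the highest bound of Met-CAT-1, 9 below that of Met-CAT-2 and 47 above iMet-CAT-1.

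Between genotypes, the 5′ to 3′ ratio of iMet-CAT-1 was 0.27 higher in KO on the log2 scale (SE 0.14), and the 3 KO values all lay above the 3 WT values, but the limma test across references did not call it (adjusted p = 0.421). Over 11 settings the iMet-CAT-1 difference ran from 0.08 to 0.31, lowest with the highest coverage of each part, and was called in 0. Of the 83 references tested, 3.61% were called. The genotypes did not overlap for 25.3% of those references, and KO lay wholly above WT for 14.5%, and the median difference over all of them was 0.09. The share of the highest iMet-CAT-1 coverage kept at position 1 was 42%, 35.4% and 35.5% in WT and 53.3%, 44.8% and 47.9% in KO, which is nearly the same measure as the ratio and no separate result. The ratios of the other initiator copies rest largely on positions counted as 29 and are not read here: of the 32 positions before the anticodon, iMet-CAT-2 had 2 to 6 listed and iMet-CAT-3 17 to 26, and of the 38 after it iMet-CAT-3 had 5 to 30. iMet-CAT-1 had all 32 listed in every library, and 26 to 38 of the 38, the fewest in WT replicate 1. Neither elongator could be tested, since its 5′ part was not listed.

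**Figure D2:**
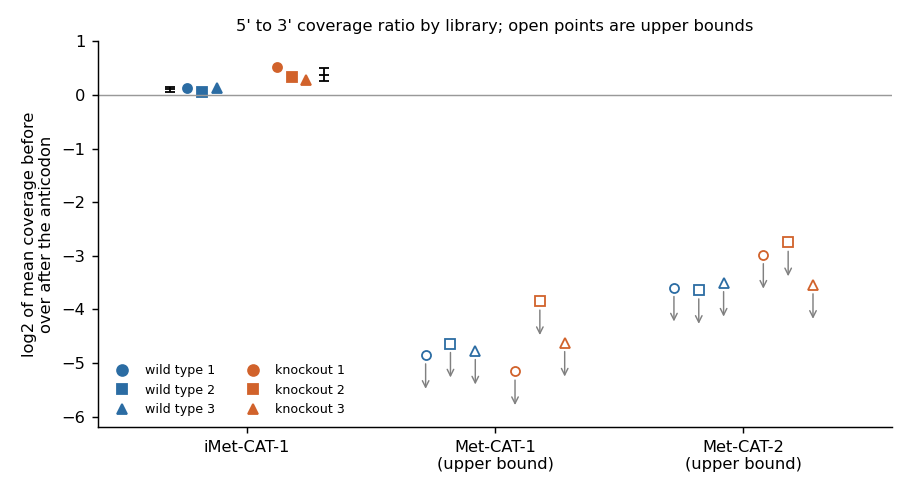
The log2 ratio of mean coverage before the anticodon to mean coverage after it (y axis) for iMet-CAT-1, Met-CAT-1 and Met-CAT-2 (x axis), one point per library with the mean and SD of 3 libraries as bars for iMet-CAT-1; open points with arrows are upper bounds. iMet-CAT-1 lies between 0.06 and 0.51, while the bounds of Met-CAT-1 lie between -5.15 and -3.84.

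The steep rise of the elongators at position 39 is a concentration of read starts in the anticodon arm, on the 3′ side of the loop. Of the reads covering position 39 of Met-CAT-1, 76%, 72.5% and 68.9% began there in WT and 72.7%, 55.3% and 72.8% in KO. KO replicate 2 was the low library and the groups overlapped. The means were 72.4% ± 3.58 in WT and 66.9% ± 10.1 in KO (SD, n = 3 each; quasi-binomial test moderated by limma, adjusted p = 0.847). At the same base of Met-CAT-2, 68.1%, 62.4% and 58.8% of reads began in WT and 73.9%, 57.7% and 65.7% in KO (limma-moderated adjusted p = 0.866). Fewer reads began before it. At position 35, the middle anticodon base and the first listed in most libraries, 64 of 77, 70 of 92 and 112 of 123 reads of Met-CAT-1 began in WT and 63 of 100, 84 of 115 and 76 of 95 in KO, a high share of a low coverage. At position 38 of Met-CAT-1 the share was 29%, 26.5% and 21.5% in WT and 23.1%, 28.2% and 20.3% in KO. At position 36, the last anticodon base, it ranged from 9.80% to 31.9% in WT and from 7.26% to 34.2% in KO.

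Reads of iMet-CAT-1 began at position 1 in the largest number and then at scattered positions. Among tested positions after it, starts made up similar shares of coverage at reference positions 54, 16 and 35, at 9.56%, 9.16% and 7.82% over the 6 libraries. Position 54, in the T loop, is described here and was chosen after its values were seen. There, 24, 23 and 30 reads began in WT and 41, 33 and 38 in KO. These counts were the same in iMet-CAT-2, where they made up 15.5%, 17.6% and 25.6% of coverage in WT and 27%, 20.6% and 23.0% in KO, against 8.14% to 12.7% of coverage on iMet-CAT-1 over the 6 libraries. The groups overlapped on both references (limma-moderated adjusted p = 0.843 for iMet-CAT-2). Of 48 read-start sites tested in methionine tRNAs, 33 of them in the initiator, the limma-moderated quasi-binomial test called 0, and 0 passed an unadjusted p under 0.05; of all 1042 sites, 0.384% were called and 7.39% passed unadjusted. The 33 initiator sites were 26 of iMet-CAT-1 and 7 of iMet-CAT-2; reference positions 39 and 54 were tested on both with the same read-start counts, which leaves 46 sites with distinct counts, 31 of them in the initiator. At 4 of the 48 the genotypes did not overlap, or 8.33% (8.70% of the 46), against 14.2% of all sites. These 4 were reference positions 4, 20 and 21 of iMet-CAT-1 and 41 of iMet-CAT-2. The lowest p-value of the 48 was at reference position 21 of iMet-CAT-1, with 7 of 264, 12 of 258 and 22 of 219 reads in WT and 11 of 534, 3 of 365 and 9 of 354 in KO (limma-moderated adjusted p = 0.619).

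The amount of each tRNA was taken as its highest coverage and tested with edgeR's quasi-likelihood test over the 145 references listed in all 6 libraries. Met-CAT-2 was called lower in KO; the other 4 methionine references tested were not called, which does not show that they differ from it. Its highest coverage was 385, 398 and 358 reads in WT and 253, 218 and 365 in KO. As a share of the summed highest coverages it was 0.200%, 0.200% and 0.184% in WT and 0.0999%, 0.0881% and 0.135% in KO, so that the groups did not overlap on this scale, as for 35.2% of all references. The log2 change was -0.95 ± 0.22 (SE; edgeR adjusted p = 0.0101, and from 0.000142 to 0.0557 over 13 settings). With the median in place of the highest coverage the call was lost, at a log2 fold change of -0.94 (edgeR adjusted p = 0.0557). Called references were common: 22.8% of all 145, with 12.4% higher and 10.3% lower in KO. A single call among 5 methionine references is near that share of calls in either direction. Without references at the depth limit, 20 of 128 were called, 15 higher and only 5 lower. Met-CAT-2 was still called lower there (edgeR adjusted p = 0.00374). Upper-quartile scaling moved the median log2 fold change of all references to -0.49 and called 12 higher and 59 lower, in place of 18 and 15. In whole-brain RNA, fewer cells of a type and less RNA per cell cannot be told apart.

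Met-CAT-1, the most abundant elongator, had a highest coverage of 902, 808 and 840 reads in WT and 1116, 449 and 769 in KO. KO replicate 1 lay within the range of WT shares and KO replicate 2 was the lowest, at 0.181% of the summed highest coverages against 0.406% to 0.469% in WT. Its log2 change was -0.62 ± 0.29 (SE; edgeR adjusted p = 0.185). It passed without WT replicate 2 (-0.65), without KO replicate 1 (-1.02) and with upper-quartile scaling (-1.10).

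The initiator references gave no call. iMet-CAT-1 had shares of 0.205%, 0.216% and 0.181% in WT and 0.268%, 0.214% and 0.190% in KO, and its log2 fold change of 0.07 had an SE of 0.20 (edgeR adjusted p = 0.865); it was -0.41 with upper-quartile scaling. For iMet-CAT-2 the change was -0.38 ± 0.22 on the log2 scale (SE; edgeR adjusted p = 0.285), and upper-quartile scaling called it at -0.86. iMet-CAT-3, the least covered, reached 56, 61 and 69 reads in WT and 118, 93 and 90 in KO. Those raw counts did not overlap, but after scaling the change was 0.21 ± 0.24 on the log2 scale (SE; edgeR adjusted p = 0.619) and -0.26 with upper-quartile scaling.

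**Figure D3:**
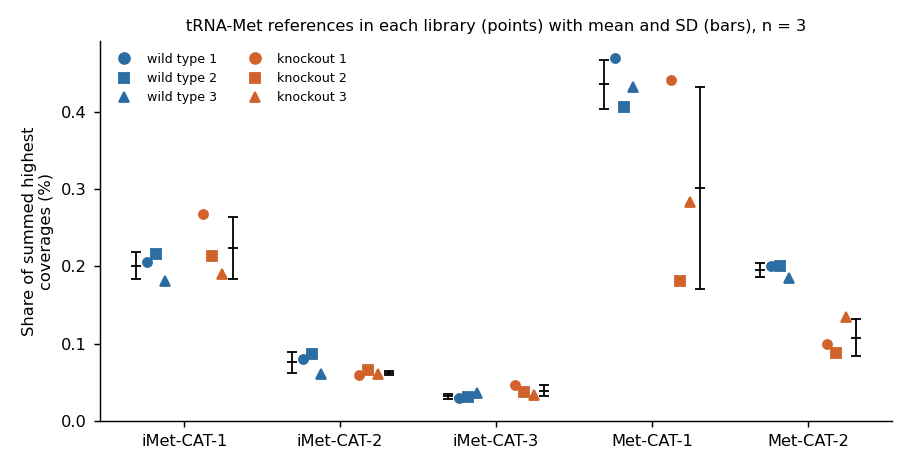
Highest coverage of each methionine tRNA reference (x axis) as a percentage of the summed highest coverages of the 145 references listed in all libraries (y axis, linear from 0), one point per library with the mean and SD of 3 libraries as bars. Met-CAT-2 is lower in all 3 knockout libraries, at 0.0881% to 0.135%, than in the wild type, at 0.184% to 0.200%.

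The balance between the classes was read as a ratio within each library, which depth does not move. The highest coverage of iMet-CAT-1 was 0.438, 0.531 and 0.419 times that of Met-CAT-1 in WT and 0.608, 1.18 and 0.671 times in KO. The elongator thus had the higher coverage in every library but KO replicate 2, and every KO ratio lay above every WT ratio. The mean log2 ratio was -1.12 ± 0.18 in WT and -0.35 ± 0.51 in KO (SD, n = 3 each), a difference of 0.77. The exact two-sided permutation test gave p = 0.1, the smallest that 3 against 3 libraries allow, so this test cannot place it below 0.05. Without KO replicate 2 the difference was 0.47. Against Met-CAT-2, iMet-CAT-1 stood at 1.03, 1.08 and 0.983 times in WT and 2.68, 2.43 and 1.41 times in KO, a log2 difference of 1.03 with the same exact permutation p of 0.1. Within the elongators, Met-CAT-2 over Met-CAT-1 was 0.427, 0.493 and 0.426 in WT and 0.227, 0.486 and 0.475 in KO, and these groups overlapped. Within the initiator, iMet-CAT-2 over iMet-CAT-1 was 0.392, 0.401 and 0.332 in WT and 0.224, 0.306 and 0.320 in KO, so that every KO ratio was lower (exact two-sided permutation test, p = 0.1). Ratios between copies without overlap are thus not limited to the 2 classes; the share of all reference pairs that do not overlap was not computed, and 35.2% of single references did not overlap as shares.

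At position 58 the classes differed in mismatches as well as in coverage. In Met-CAT-1, 706 of 899, 470 of 761 and 667 of 805 base calls at A58 differed from A in WT (78.5%, 61.8% and 82.9%), and 877 of 1043, 351 of 434 and 629 of 749 in KO (84.1%, 80.9% and 84.0%). T made up 95.7% of these mismatches. In iMet-CAT-1, 0 of 574 base calls at A58 differed, with 79 to 123 calls per library; 3 reads of that depth allow a share of 2.44% to 3.8%, and the Wilson 95% upper bounds were 3.03% to 4.64% (both cover counting error only). The difference of iMet-CAT-1 minus Met-CAT-1 averaged -78.7 percentage points and lay between -84.1 and -61.8 points, with the initiator lower in 6 of 6 libraries (exact two-sided sign-flip test, p = 0.031). Against Met-CAT-2 the difference was smaller, at -25.1 points on average and between -30.2 and -17.5 points, again with the initiator lower in 6 of 6 libraries, and with reads pooled over the references of each class it was -62.0 points. The reads behind the values of iMet-CAT-1 and Met-CAT-1 are not alike: coverage at A58 of iMet-CAT-1 was 21.2% to 26.4% of that at 53, with 24, 23 and 30 reads in WT and 41, 33 and 38 in KO beginning in between at canonical 55, and the mean base quality at A58 was 33.8 to 36.5, against 38.6 to 39 in Met-CAT-1. Their part in the difference was not tested. iMet-CAT-2 (0 of 450 calls in 6 libraries) and iMet-CAT-3 (0 of 197 calls in 4 libraries) also had no mismatch there. Both copies share read-start counts in the T loop with iMet-CAT-1, so their calls are not independent of those of iMet-CAT-1.

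The elongator copies differed among themselves at this base. Met-CAT-2 had mismatch shares at A58 of 27%, 22.3% and 24.1% in WT and 30.2%, 29.2% and 17.5% in KO, with T at 79.3% of mismatches and G at 20.5%. It lay below Met-CAT-1 in 6 of 6 libraries, with differences of -66.5 to -39.5 points (exact two-sided sign-flip test, p = 0.031). Met-CAT-3 had 25 of 63, 3 of 57 and 11 of 55 calls mismatched in WT replicate 1, WT replicate 2 and KO replicate 1, a range wide enough that no common level can be given. Among the other cytosolic references with an A at position 58, counted once where counts were identical, the mean mismatch share had a median of 3.98% and a maximum of 83.9% over 54 references. Of these, 1 lay above Met-CAT-1, 15 above Met-CAT-2 and 52 above the initiator. The initiator value was 0, with Wilson upper bounds of 3.03% to 4.64% per library for iMet-CAT-1. The median of 3.98% lies within that range, and 9 of the 54 were under 1%. The count of 52 therefore does not separate the initiator from all 54 references. Coverage at 58 was a median of 0.881 times that at 53 in the same references, and 7 had a lower value than the 0.230 of iMet-CAT-1.

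Genotype made no called difference at A58. The mean in Met-CAT-1 was 74.4% ± 11.1 in WT and 83.0% ± 1.82 in KO (SD, n = 3 each; limma-moderated adjusted p = 0.562), and the spread in WT came from WT replicate 2. Without that library the difference of 8.60 points became 2.29 points. In Met-CAT-2 the means were 24.5% ± 2.40 and 25.6% ± 7.06 (limma-moderated adjusted p = 1). Of 8 mismatch sites tested in methionine tRNAs, the limma-moderated test called 0 and 0 passed an unadjusted p under 0.05; over all 144 sites it called 0 (0%), with 7 (4.86%) at an unadjusted p under 0.05, and limma on the arcsine square root also called 0.

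Position 9 could be read in the initiator only. G9 of iMet-CAT-1 was mismatched in 36 of 153, 21 of 155 and 25 of 126 calls in WT (23.5%, 13.5% and 19.8%) and in 92 of 383, 79 of 256 and 52 of 262 in KO (24.0%, 30.9% and 19.8%). The groups overlapped. The means were 19.0% ± 5.05 in WT and 24.9% ± 5.56 in KO (SD, n = 3 each; limma-moderated adjusted p = 0.660). Unlike at A58 of the elongators, the miscalls were spread over the other bases: T 47.5%, C 26.6% and A 25.9%. Coverage dipped at this base, to 153, 155 and 132 reads in WT and 383, 256 and 262 in KO, from 200, 167 and 150 in WT and 416, 277 and 284 in KO one base before. Relative to position 11, coverage at 9 was 74.3%, 85.6% and 86.8% in WT and 89.5%, 89.8% and 89.7% in KO, with every KO value above every WT value (p = 0.1 by exact permutation); the share of all references without overlap was not computed for this measure. Beside it, at position 10, 48 of 204, 16 of 175 and 6 of 133 reads in WT and 35 of 419, 22 of 280 and 0 of 264 in KO were without a base call, and their part in the dip was not tested. Among other cytosolic references with a G at position 9, counted once where identical, the mean mismatch share had a median of 0.0243% and a maximum of 10.2% over 32 references, so that none lay above the 21.9% of iMet-CAT-1. Position 9 of the elongators had fewer than 30 reads in every library.

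**Figure D4:**
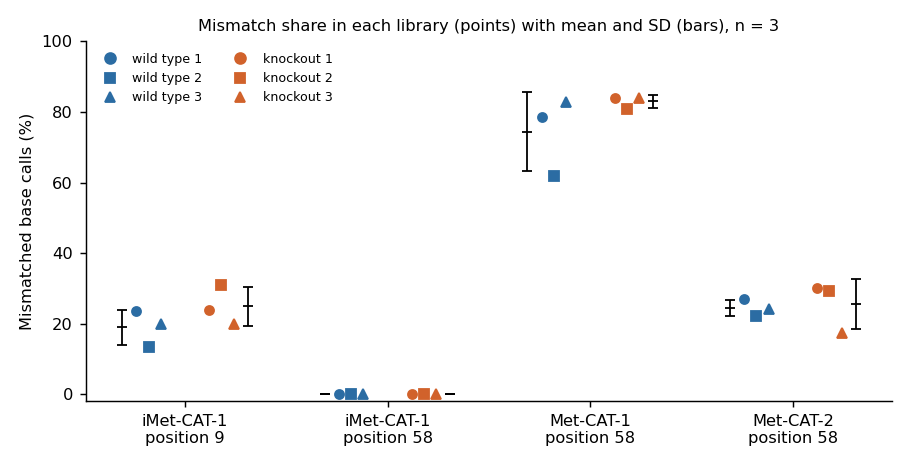
Percentage of base calls that differ from the reference base (y axis) at position 9 of the initiator and position 58 of the initiator and both elongators (x axis), one point per library with the mean and SD of 3 libraries as bars. Position 58 is at 0 in all 6 libraries of the initiator, near 25% in Met-CAT-2 and between 61.8% and 84.1% in Met-CAT-1.

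Position 26, the base that TRMT1 methylates, was also listed in the initiator alone. G26 of iMet-CAT-1 had 0 mismatches in 268, 289 and 261 calls in WT, which allows a share of up to 1.12%, 1.04% and 1.15%. In KO it had 1 in 571, 0 in 399 and 6 in 376. The 6 calls in KO replicate 3 were 4 A and 2 C, a share of 1.60% (Wilson 95% interval 0.733% to 3.44%). iMet-CAT-3 had 4 mismatches in 72 calls in that library, all G25A in reference numbering, and 0 in the other 5. The site was under the pooled rate of 1% for testing. Of 20 other distinct references with a G at position 26, 18 had a higher mean share than iMet-CAT-1, with a median of 3.42%. However, 6 of the 20 were under 1%, a share that the WT depth of iMet-CAT-1 could not detect. The count of 18 therefore does not separate iMet-CAT-1 from all of them.

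Position 37, where both classes could be read, gave almost no mismatches in either. iMet-CAT-1 had 0 in 2880 calls over 6 libraries, Met-CAT-1 0 in 937 and Met-CAT-2 1 in 487, in KO replicate 3. At 130 to 206 calls per library a share of up to 1.46% to 2.31% could not be detected in Met-CAT-1. Of 41 other references with an A at 37, 40 were under 1% and the highest reached 22.7%.

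Deletions were listed at 43 positions of a reference in a library, 9 of them with at least 5% of reads. Apart from position 8 of iMet-CAT-1, given below, the highest shares were at low coverage: 10 of 53 reads at position 49 of Met-CAT-3 in KO replicate 1, and at reference position 61 in KO replicate 3, 9 of 63 of iMet-CAT-3, 7 of 56 of iMet-CAT-2 and 7 of 72 of iMet-CAT-1. At that position WT replicate 3 had 4 of 50 reads of iMet-CAT-2 and 4 of 56 of iMet-CAT-1. In Met-CAT-1, deletions listed at positions 56 and 57 that take in base 58 numbered 2, 21 and 18 in WT and 35, 7 and 16 in KO, or 0.222% to 3.25% of reads, and equalled the reads without a base call at 58 in every library. Such a match to the deletions listed one base before held at 47.7% of the 44 methionine entries with reads lacking a call and at 34.2% of all, so the base removed was not settled elsewhere. In iMet-CAT-1, deletions were listed at position 8, with 1 of 200, 0 of 167 and 20 of 150 reads in WT and 0 of 416, 0 of 277 and 22 of 284 in KO. Those deletions came almost wholly from 1 library of each genotype, WT replicate 3 and KO replicate 3. Reads without a base call did not settle which base they remove: in KO replicate 3, with 22 listed, 0 lacked a call at position 9. Coverage in that library was 284, 262, 264 and 292 reads at positions 8, 9, 10 and 11. In WT replicate 3, with 20 listed, it was 150, 132, 133 and 152. The libraries with 0 or 1 listed also had lower coverage at 9 than at 8. Whether such reads skip positions 9 and 10 was not tested. The insertion site tested in the initiator, reference position 53 or canonical 54, had 2 of 358, 10 of 358 and 7 of 276 reads in WT and 22 of 565, 18 of 419 and 9 of 438 in KO (1.96% ± 1.22 and 3.41% ± 1.19, SD, n = 3 each; limma-moderated adjusted p = 0.596). Of 3 deletion sites and 1 insertion site tested in these references, the limma-moderated test called 0 and 0 passed an unadjusted p under 0.05. Over all references it called 0 of 60 deletion sites and 0 of 35 insertion sites (0% each), with 8 (13.3%) and 3 (8.57%) at an unadjusted p under 0.05.

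Some mismatches were seen in 1 library only, with at least 3 reads and 1% there and 0 in every other library that listed the position. There were 21 in methionine tRNAs, of 222 in all references, counted per reference, so that repeats between copies are included. In WT replicate 2, 9 calls were mismatched at position 43 of each of Met-CAT-1, Met-CAT-2 and Met-CAT-3. The same number was mismatched at position 52 of both Met-CAT-2 and Met-CAT-3. WT replicate 2 held 11 of the 21, all in elongators, and 112 of the 222. In Met-CAT-1 63 of 803 calls were mismatched at position 52 (7.85%), 63 of 787 at 62 (8.01%), 59 of 774 at 59 (7.62%), 34 of 775 at 57 (4.39%) and 9 of 758 at 43 (1.19%), each with 0 in the 3887 to 4053 calls of the other 5 libraries. Just outside the rule, the same library had 51 of 768 at position 44 and 51 of 715 at position 69, where WT replicate 1 and KO replicate 3 had 1 read each. It also had 37 deletions listed at position 65, against 3 in KO replicate 3 and 0 elsewhere. This is the library with the low A58 share, and the one that alone lists Met-CAT-4 and Met-CAT-5.

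Of the 21, 7 were in the initiator and 14 in elongators, or 7 and 3 without WT replicate 2. These counts include the repeats between copies, and the difference was not tested. In reference numbering, WT replicate 1 had C33T, at the first anticodon base, in 9 of 309 calls (2.91%) with 0 in 2228 calls of the other 5 libraries. KO replicate 1 had G48C, at canonical 49, in 8 of 595 calls of iMet-CAT-1 and in 4 of 127 of iMet-CAT-2, and it also held the 3 of Met-CAT-3 at positions 59, 64 and 66, in 10 reads each. KO replicate 2 had C11T in 3 of 285 calls.

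**Figure D5:**
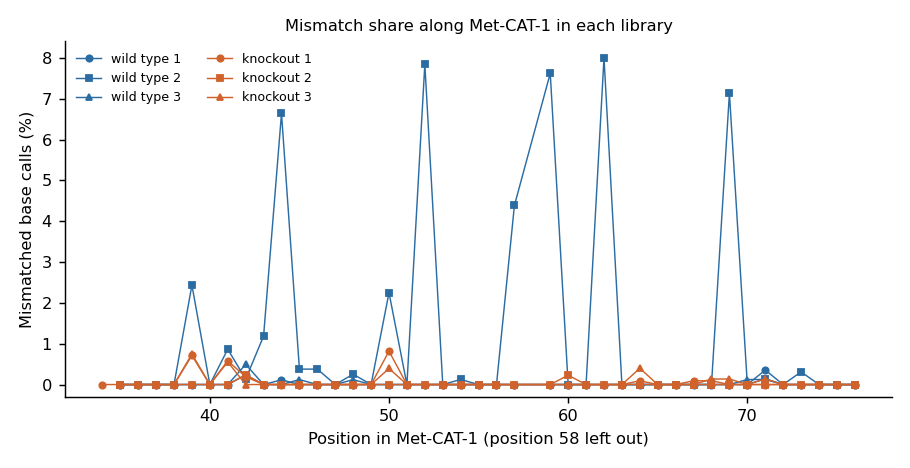
Percentage of base calls that differ from the reference base (y axis) along Met-CAT-1 (x axis, position 58 left out), one line per library, blue for wild type and orange for knockout. Only wild-type replicate 2 passes 4%, at positions 44, 52, 57, 59, 62 and 69, with 4.39% to 8.01%.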

How the data were processed

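Per the file headers, the deposited tables hold raw counts per position of the tRNA references: coverage, calls of each base, read starts, deletions and insertions, with mean base quality as a score. The authors' aligner, reference set and genome build are not given in the sources used here; the submitters' processing notes name GATK 3.5. Positions under 30 reads are not listed. A read start listed at a position counts reads beginning 1 base before it, and starts were moved accordingly. Mismatch shares are mismatched over called bases. Sites needed 100 reads in each library and a pooled rate of 1%. They were tested with a quasi-binomial model moderated by limma 3.58.1 (R 4.3.3), highest coverages with edgeR 4.0.16 (TMM, filterByExpr) and DESeq2 1.42.0 as an alternative, and 5′ to 3′ ratios with limma, all two-sided, over the whole table, with Benjamini-Hochberg adjustment at 0.05. The 3 against 3 libraries were grouped by the labels. The scripts were tested on simulated data. The named items were every methionine reference, positions 9, 26, 37 and 58, and up to 5 further tested positions per readout with the highest pooled rate. Members, lists and tests were chosen with earlier results of these data known. No 2 libraries of one genotype agreed within sampling noise. Not every sequence is reported here.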

Additional observations from a re-analysis of the deposited data

How the results depend on the processing

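Met-CAT-2 was called lower in KO in 12 of 13 settings, the exception being the median coverage. The 13 include the main setting and the one without filterByExpr, which gave the same values because that filter removed no reference. Met-CAT-1 was called in 3 of the 13 settings, iMet-CAT-2 in 1 and no other methionine reference in any. No site tested in these references was called in any setting. Upper-quartile scaling called 71 references in place of 33, median coverage 13, and leaving out references at the depth limit 20. Read-start sites went from 4 calls to 0 at a pooled rate of 5%, and to between 0 and 4 with a library left out (0 without WT replicate 2). Deletion sites went from 0 to 1 with a coverage minimum of 500 and to 1 with a rate of 5%, and to between 0 and 2 with a library left out. Insertion sites gave 0 to 3 and the 5′ to 3′ ratio 3 to 6 calls with a library left out, against 0 and 3, and the ratio gave 1 with unlisted positions at 0. The cause of these changes was not tested.

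The replicate numbers did not pair the libraries: same-numbered libraries correlated at between -0.14 and 0.17 on average in 6 readouts. With the replicate block, 35 references, 6 read-start sites and 3 ratios were called in place of 33, 4 and 3. The difference of iMet-CAT-1 minus Met-CAT-1 at position 58, -78.7 points, was -62.0 with reads pooled over the references of each class and -78.7 with the replicate block, where 3 pairs cannot give an exact p below 0.25. With a library left out it was -82.1 to -77.6 points, where 5 libraries cannot give one below 0.0625. The coverage minimum of 100 was not run for it, because the initiator is under 100 reads there in several libraries.

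Small differences that were never called changed sign. The log2 fold change of iMet-CAT-1 was -0.41 with upper-quartile scaling, -0.0225 without references at the depth limit and -0.10 to 0.14 with a library left out. It was highest with median coverage, at 0.30. That of iMet-CAT-3 was -0.26 with upper-quartile scaling and -0.065 with median coverage. The log2 5′ to 3′ difference of iMet-CAT-2 was 0.0734 with the highest coverage of each part, and that of iMet-CAT-3 -0.68 with unlisted positions at 0 and -0.11 to 0.16 with a library left out. In percentage points, with a library left out, the difference ran from -4.61 to 2.33 for deletions at position 8 of iMet-CAT-1, -0.65 to 0.27 for deletions at 56 of Met-CAT-1, -8.42 to 0.30 and -6.49 to 7.61 for read starts at 39 and 36 of Met-CAT-1, -1.38 to 6.68 for read starts at 39 of Met-CAT-2, and -1.10 to 5.24 for mismatches at 58 of Met-CAT-2. Coverage under 100 reads limits what can be seen at position 58 of the initiator.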
